A study of Homo sapiens with 6 samples.

Results

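The heat shock chaperones described here are 10 genes, HSPA1A, HSPA1B, HSPA8, HSP90AA1, HSP90AB1, HSPB1, HSPH1, DNAJB1, HSPD1 and HSPE1, taken by gene symbol from a table of read counts per gene. All 10 symbols were found among the 22354 loci of that table, and all 10 passed the filter on low counts. Sequencing covered 6 cultures of HTori-3.1, an established human thyroid line described as normal, of which 3 were labelled wild type control and 3 were labelled BMAL1 knockout. The knockout cells had received virus carrying CRISPR-Cas9 directed at BMAL1, a transcription factor of the circadian clock, and were selected with puromycin and picked as single clones, so a difference between genotypes and a difference between clones cannot be told apart. Every culture, the controls included, had been treated with 2 μM etoposide, which damages DNA by blocking a topoisomerase, to induce senescence. The length of that exposure is 12 hours in the treatment field of the samples and 24 hours in the protocol. No culture without etoposide was sequenced, so the comparison asks how chaperone transcripts differed between the genotypes under etoposide and holds no response to the drug itself. Total counts were 26893063, 27029060 and 28513703 in control replicates 1 to 3 and 43148059, 29860233 and 43563391 in the libraries labelled knockout.

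Heat shock chaperones bind unfolded protein and help it fold, keep it soluble or pass it on for degradation. Heat shock factor 1 (HSF1), a transcription factor held inactive by chaperones in unstressed cells, binds heat shock elements in their promoters when unfolded protein accumulates. Some family members, such as HSPA8 and HSP90AB1, are abundant in cells that have not been stressed, while HSPA1A, HSPA1B and DNAJB1 are known for strong induction by heat.

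The transcript of the targeted gene was read first. BMAL1 (ENSG00000133794.20) was measured at 11.3, 12.2 and 14.6 CPM (counts scaled by library total and TMM factor) in the control libraries and at 17.9, 19.8 and 19.4 CPM in those labelled knockout. Each of the latter lay above each control, so this transcript was not lower under the label. Its level does not show whether the edited gene still makes protein, so it cannot decide if the label is right. The groups are called libraries labelled BMAL1 knockout throughout. The log2 fold change, here always labelled knockout over control, was 0.58 (SE 0.113, adjusted p = 0.0204, edgeR's quasi-likelihood test and Benjamini-Hochberg adjustment over 14860 genes), and leaving out each library in turn kept it under 0.05 in 2 of 6 fits (0.0168 to 0.113). The BMAL1 protein was not analysed here, although the labels state that knockout clones were checked by western blot. NR1D1 and NR1D2, known targets that BMAL1 activates, ran the way the label says (named here after their values were seen). NR1D1 averaged 7.24 CPM in controls and 3.05 CPM in the libraries labelled knockout, a log2 fold change of -1.25 with an adjusted p of 0.00146 in the same edgeR test. NR1D2 averaged 68.2 and 39.7 CPM, a log2 fold change of -0.78 with an adjusted p of 0.00233.

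Markers gave a mixed picture of thyroid identity. Of 6 thyroid follicular markers, 2 averaged 1 CPM or more: PAX8, the most abundant, averaged 133 CPM in controls and 110 CPM in the libraries labelled knockout, and FOXE1 averaged 48.0 and 40.0 CPM. NKX2-1, a defining thyroid factor, had 0 counts in every library, and TG, TSHR and SLC5A5 had at most 13 counts in any library. Of the epithelial keratins, KRT8 averaged 1410 and 1160 CPM, KRT18 852 and 602 CPM, KRT7 710 and 760 CPM and KRT19 7.67 and 8.97 CPM, so the means of the first pair were lower and those of the second pair higher in the libraries labelled knockout. EPCAM and CDH1 were near 0. The 6 epithelial markers summed to 2990, 3040 and 2900 CPM in controls and 2540, 2480 and 2560 CPM in the libraries labelled knockout, and the 6 thyroid markers to 172, 173 and 200 CPM against 129, 149 and 172 CPM. Of 6 fibroblast markers, COL1A1 led at 860 and 859 CPM while DCN and LUM had 0 counts in every library; their sum was 922, 926 and 790 CPM in controls and 718, 935 and 989 CPM in the libraries labelled knockout. Immune markers, of which CD68 was the most abundant and CD3E was at 0, summed to 19.0, 19.6 and 17.4 CPM against 13.8, 11.4 and 12.1 CPM. Within that sum PTPRC averaged 6.40 and 2.36 CPM and CD68 12.1 and 10.0 CPM. Endothelial markers summed to at most 2.21 CPM, and the C cell and parathyroid markers to at most 0.328 CPM, in any library. The part of the lower epithelial and immune sums in the chaperone values was not tested.

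Knockout replicate 1 stood apart from the other libraries of its group. Counts of knockout replicates 2 and 3 differed by 7.43 times the variance of counting alone, whereas those of replicate 1 differed by 31.0 times from replicate 2 and by 45.0 times from replicate 3. Between controls these ratios were 5.41, 14.5 and 13.2. Such ratios also rise with the total count, which was higher in knockout replicates 1 and 3 than in any other library. For GC content, the log2 CPM of each gene was taken as the deviation from its mean over all libraries. The slope of these deviations with exon GC content, over 12479 genes and per 10% of GC, was -0.12 in knockout replicate 1. It was -0.09 in control replicate 3 and between 0.04 and 0.07 in the other 4. The total count of knockout replicate 1 was close to that of knockout replicate 3. By the leading principal components of log2 CPM it did not stand alone: on the first (34.3% of variance), which separated the groups, it lay at 20.19, between knockout replicates 2 (23.47) and 3 (17.41). On the second (20.1%), it lay at -14.83 against 9.18 and 0.46, and control replicate 3 lay at -25.39 against 21.22 and 9.37 for the other controls. The results of the members are therefore given with and without knockout replicate 1, and their counts also without control replicate 3.

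The promoters of the members are shown first because most of them, though not those of HSPH1 and HSPE1, hold at least a pair of the units of which heat shock elements are built. RefSeq windows of 300 bases (GRCh38.p14), 250 before and 50 after a start site, were available for all 10 members at 16 start sites, and all 16 matched hg38. They were searched on both strands for the pair TTCNNGAA or GAANNTTC, for a longer form in which a further GAA or TTC unit follows the pair after any 2 bases, and for the E-box CACGTG, which the BMAL1 and CLOCK dimer is known to bind. The longer form, which contains the pair, was found in 4 of 10 members, against 0.608% of the 27305 genes with such windows (0.49% of 35116 windows). Those members were HSP90AA1, HSP90AB1, HSPA8 and HSPD1. In the lines below each stretch is written 5′ to 3′ on the gene's strand, with the heat shock units in capitals and with its position before the start site.

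HSP90AA1, chr14:102087093-102087144, reverse strand, -100 to -49: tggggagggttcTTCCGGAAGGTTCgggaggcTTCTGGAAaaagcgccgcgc
HSP90AB1, chr6:44247766-44247855, forward strand, -177 to -88: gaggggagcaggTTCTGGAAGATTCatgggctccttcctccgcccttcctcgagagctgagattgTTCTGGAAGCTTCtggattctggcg
HSPA8 distal, chr11:123062346-123062374, reverse strand, -238 to -210: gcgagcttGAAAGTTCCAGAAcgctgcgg
HSPA8 proximal, chr11:123062171-123062199, reverse strand, -63 to -35: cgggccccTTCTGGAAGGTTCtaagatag
HSPD1, chr2:197500062-197500090, reverse strand, -250 to -222: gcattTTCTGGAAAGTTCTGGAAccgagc

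The stretch of HSP90AB1 precedes a start site 842 bases into the gene from the canonical one, and the other 4 stretches precede the canonical start. The pair alone was found in HSPA1A, HSPA1B, HSPB1 and DNAJB1, so that 8 of 10 members held at least a pair, against 16.2% of all genes with such windows. Their stretches are shown for comparison, and those of the HSP70 copies HSPA1A and HSPA1B are nearly alike. The search allowed no mismatch. In HSPA1A, HSPA1B, HSPB1 and the first pair of DNAJB1, the unit after the pair differs from GAA only in its last base. The split between the longer form and the pair alone therefore rests on that base in these genes.

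HSPA1A, chr6:31815425-31815456, forward strand, -118 to -87: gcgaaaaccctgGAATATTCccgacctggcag
HSPA1B, chr6:31827621-31827652, forward strand, -117 to -86: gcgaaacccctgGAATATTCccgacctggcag
DNAJB1, chr19:14518425-14518486, reverse strand, -89 to -28: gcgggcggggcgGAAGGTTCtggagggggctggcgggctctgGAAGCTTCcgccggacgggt
HSPB1, chr7:76302479-76302510, forward strand, -194 to -163: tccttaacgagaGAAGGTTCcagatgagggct

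Over the 249 upstream bases that could be lined up at this pair, HSPA1A and HSPA1B had 235 in common, or 94.4%. HSPH1 and HSPE1 held neither form in these windows. HSPD1 and HSPE1 are transcribed away from each other from a shared region, and the same E-box lay 22 bases before the start of HSPE1 and 88 bases before an alternative start of HSPD1. It is shown in capitals below, and 8.77% of all genes with such windows held an E-box in them.

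HSPE1, chr2:197500345-197500374, forward strand, -34 to -5: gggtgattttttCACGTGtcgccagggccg

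These matches describe the letters of the windows and no binding was measured.

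Per kilobase of the canonical transcript, the members spanned a wide range of levels. HSP90AA1 averaged 1200 CPM per kb in controls and HSPA8 1120 CPM per kb, with control ranges of 1160 to 1250 and 1080 to 1170 that overlapped. HSP90AB1 followed at 851 and HSPD1 at 725 CPM per kb, each apart from its neighbours in every control library. HSPE1 and HSPB1 came next at 356 and 334 CPM per kb, with overlapping ranges. The remaining 4 genes were far lower, with HSPH1 at 93.4, HSPA1B at 84.1, DNAJB1 at 68.5 and HSPA1A at 49.7 CPM per kb, again with no overlap between neighbours in the control libraries. In the libraries labelled knockout the means of HSPB1 and HSPE1 were 377 and 376 CPM per kb, but HSPE1 ranged from 318 to 470, highest in replicate 1, and HSPB1 from 358 to 394, lowest in replicate 1. Among 13578 genes ranked per kilobase, HSP90AA1, HSPA8, HSP90AB1 and HSPD1 held ranks 23, 24, 38 and 51, whereas HSPA1A held rank 1545. The places of HSPA1A and HSPA1B hold for uniquely mapped reads only, since most of their sequence is shared, as described with their values. With the union of all exons as the length, HSPA8 and HSP90AB1 exchanged places, as did HSPE1 with HSPB1, HSPH1 with HSPA1B and DNAJB1 with HSPA1A. Together the members took 1.14, 1.16 and 1.17% of all counts in the controls and 1.26, 1.03 and 1.04% in the libraries labelled knockout, where replicate 1 lay above and the other replicates below every control (means 1.15 ± 0.0147% and 1.11 ± 0.132%, SD, n = 3, two-sided exact permutation test, p = 0.5).

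**Figure D1:**
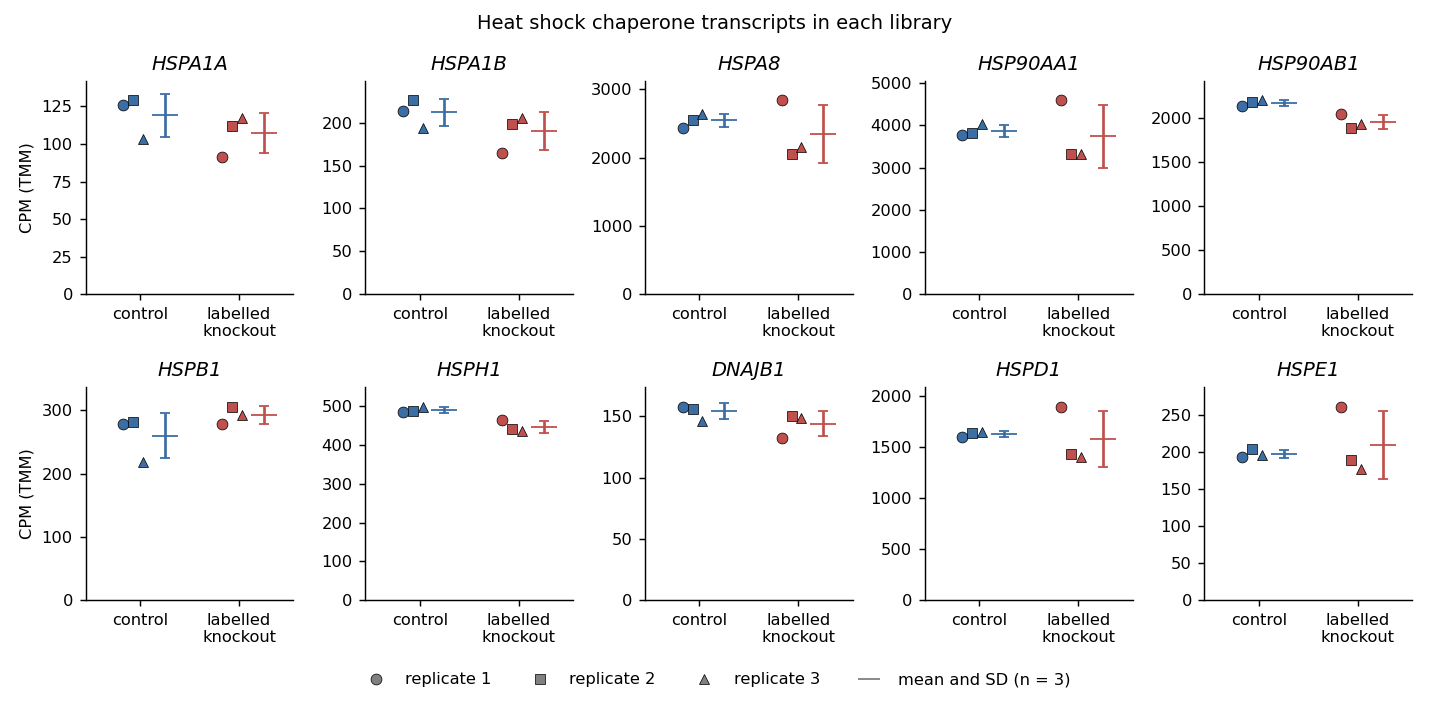
Level of each of the 10 members in CPM (linear axis from 0) in the 3 control libraries (blue) and the 3 labelled knockout (red), with the marker shape giving the replicate and the bar the mean with its SD. For HSPA8, HSP90AA1, HSPD1 and HSPE1 the circle of knockout replicate 1 lies above every control while the square and triangle lie below.

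The cytosolic HSP90 proteins mature kinases and steroid receptors, and HSP90AB1 is abundant in unstressed cells. HSP90AB1 (ENSG00000096384.20, chr6:44246166-44253888) was at 2140, 2180 and 2200 CPM in the controls and at 2040, 1890 and 1930 CPM in the libraries labelled knockout. All 3 of the latter lay below all 3 controls, and knockout replicate 1 lay nearest to them. Its log2 fold change was -0.16 (95% interval -0.31 to -0.01, unadjusted p = 0.0432, adjusted p = 0.278, edgeR's quasi-likelihood test and Benjamini-Hochberg adjustment), and without knockout replicate 1 it was -0.19 with an adjusted p of 0.0338 in the same edgeR test. As these are bulk cultures, fewer cells with the transcript and less of it per cell cannot be told apart.

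HSP90AA1 (ENSG00000080824.19, chr14:102080742-102139699), the stress-responsive form, was at 3760, 3820 and 4030 CPM in the controls and at 4590, 3310 and 3310 CPM in the libraries labelled knockout. Knockout replicate 1 was the highest of the 6 libraries and the other 2 were the lowest. With all libraries the log2 fold change was -0.05 (95% interval -0.30 to 0.20, adjusted p = 0.867, edgeR's quasi-likelihood test and Benjamini-Hochberg adjustment). Without knockout replicate 1 it was -0.23 (95% interval -0.33 to -0.13, adjusted p = 0.0195, same edgeR test), or 14.6% lower. The ratio of HSP90AA1 to HSP90AB1 within a library was 2.25 in knockout replicate 1 and between 1.72 and 1.83 in the other 5.

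HSPA8 (ENSG00000109971.14, chr11:123057489-123063230) encodes the constitutive HSP70 of the cytosol. Its level was 2440, 2560 and 2640 CPM in the controls against 2840, 2060 and 2150 CPM in the libraries labelled knockout, again with knockout replicate 1 above every control and the other 2 below. The log2 fold change of HSPA8 was -0.12 (95% interval -0.35 to 0.12, adjusted p = 0.643, edgeR's quasi-likelihood test and Benjamini-Hochberg adjustment) with all libraries and -0.27 (95% interval -0.38 to -0.17, adjusted p = 0.0107, same edgeR test) without knockout replicate 1. A lower level by 17.4% in that fit was the largest among the members.

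HSPH1 (ENSG00000120694.20, chr13:31134973-31162388) encodes HSP110, which exchanges the nucleotide of HSP70. It was at 484, 487 and 499 CPM in the controls and at 464, 441 and 436 CPM in the libraries labelled knockout, which did not overlap. The log2 fold change of HSPH1 was -0.13 (95% interval -0.28 to 0.02, adjusted p = 0.361, edgeR's quasi-likelihood test and Benjamini-Hochberg adjustment) and, without knockout replicate 1, -0.16 with an adjusted p of 0.0949. Of the members it has the lowest exon GC content, 38.1%.

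The stress-inducible HSP70 is encoded by HSPA1A (ENSG00000204389.10, chr6:31815543-31817946) and HSPA1B (ENSG00000204388.7, chr6:31827738-31830254). Of the stretches of 150 bases, the read length, in the HSPA1A transcripts, 65.3% also occurred in HSPA1B, and 66.1% the other way, so uniquely mapped reads can be lost or split between them, and the sum of both rows was fitted too. HSPA1A was at 126, 129 and 103 CPM in the controls and at 91.6, 112 and 117 CPM in the libraries labelled knockout. HSPA1B was at 214, 226 and 194 CPM in the controls and at 165, 199 and 206 CPM in the libraries labelled knockout. In both genes knockout replicate 1 was the lowest library and the groups overlapped. The ratio of HSPA1A to HSPA1B stayed between 0.530 and 0.587 in the 6 libraries. Their sum was 340, 355 and 298 CPM against 256, 311 and 322 CPM, with a log2 fold change of -0.16 (SE 0.0996, adjusted p = 0.456, edgeR's quasi-likelihood test and Benjamini-Hochberg adjustment), and of -0.07 (adjusted p = 0.681, same edgeR test) without knockout replicate 1. HSPA1B also shares 36.6% of its exon bases with a non-coding RNA on the same strand, ENSG00000285565.

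DNAJB1 (ENSG00000132002.9, chr19:14514769-14560391) encodes HSP40, the J-domain protein that brings substrates to HSP70. It was at 158, 156 and 146 CPM in the controls and at 132, 150 and 149 CPM in the libraries labelled knockout. Only knockout replicate 1 lay below every control. The log2 fold change of DNAJB1 was -0.10 (95% interval -0.27 to 0.08, adjusted p = 0.587, edgeR's quasi-likelihood test and Benjamini-Hochberg adjustment) and -0.04 without knockout replicate 1 (adjusted p = 0.798, same edgeR test).

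HSPB1 (ENSG00000106211.10, chr7:76302673-76304295) encodes the small heat shock protein HSP27, which holds unfolded proteins without ATP. Its values were 278, 282 and 219 CPM in the controls and 278, 306 and 293 CPM in the libraries labelled knockout. Control replicate 3 was low, and the groups overlapped at knockout replicate 1. HSPB1 had the highest log2 fold change of the members, 0.17 (95% interval -0.04 to 0.39, adjusted p = 0.406, edgeR's quasi-likelihood test and Benjamini-Hochberg adjustment), and 0.21 without knockout replicate 1 (adjusted p = 0.290, same edgeR test). It also has the highest exon GC content of the 10, 63.6%.

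The mitochondrial chaperonin is formed by HSPD1 (HSP60; ENSG00000144381.18, chr2:197486584-197516737) and its lid HSPE1 (HSP10; ENSG00000115541.11, chr2:197500140-197503449). HSPD1 was at 1600, 1640 and 1650 CPM in the controls and at 1900, 1430 and 1410 CPM in the libraries labelled knockout. HSPE1 was at 194, 204 and 196 CPM in the controls and at 262, 190 and 177 CPM in the libraries labelled knockout. Both genes had knockout replicate 1 above every control and the other 2 libraries of the group below. The log2 fold change of HSPD1 was -0.05 (95% interval -0.28 to 0.18, adjusted p = 0.868, edgeR's quasi-likelihood test and Benjamini-Hochberg adjustment) and, without knockout replicate 1, -0.20 (95% interval -0.30 to -0.10, adjusted p = 0.0304, same edgeR test). For HSPE1 the sign turned, from 0.08 (adjusted p = 0.795, edgeR's quasi-likelihood test and Benjamini-Hochberg adjustment) to -0.11 (adjusted p = 0.351, same edgeR test). Within a library, the CPM ratio of HSPD1 to HSPE1 was 8.22, 8.02 and 8.44 in the controls and 7.24, 7.51 and 7.96 in the libraries labelled knockout, which lay lower without overlap (two-sided exact permutation test, p = 0.1, the smallest that 3 against 3 allows). This was 1 of 5 such ratios computed; the groups overlapped in the other 4. The read-through gene HSPE1-MOB4, at a mean of 0.749 and 1.68 CPM, shares 192 bases (10.5%) of the exons of HSPE1 on the same strand. Exons of HSPD1 and HSPE1 share 135 bases on opposite strands, and parts of the exons of HSPA8 (11.4%, a non-coding RNA), DNAJB1 (6.41%, TECR) and HSP90AA1 (3.87%, WDR20) are also overlapped by a gene on the other strand, whose reads cannot be told apart without stranded counting.

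With all 6 libraries, 0 of 10 members were higher and 0 were lower at an adjusted p under 0.05 in edgeR's quasi-likelihood test, against 1.08% of the 14860 genes tested that were higher and 1.43% that were lower. DESeq2 and limma-voom also called 0, and at an unadjusted p under 0.05 only HSP90AB1 was lower and 0 were higher, where 7.78% of all genes were lower and 9.08% were higher. Log2 fold changes were below 0 in 8 of 10 members and in 47.8% of all genes, with a median of -0.11 against 0.01 over all genes. The 95% intervals of the 10 reached from -0.40 to 0.39, which as folds is 0.759 to 1.31. In 2 of 10 members, HSP90AB1 and HSPH1, all libraries labelled knockout lay below all controls, a pattern found in 11.5% of all genes, and the reverse was found in 0 members and in 11.8% of all genes.

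Without knockout replicate 1, 4 of 10 members passed an adjusted p under 0.05 as lower in edgeR's quasi-likelihood test: HSPA8, HSP90AA1, HSPD1 and HSP90AB1. In that fit 2.26% of 15045 genes were lower and 1.95% were higher, and 0 members were higher. These 4 are the most abundant members per kilobase, and of the 2446 genes that averaged 100 CPM or more, 124 (5.07%) were lower in the same fit. They are also the 4 with the longer heat shock element shown above, a form counted only where it occurred without mismatch. With the same library left out, limma-voom called the same 4 members lower and did not call HSPH1 (adjusted p = 0.0811). The match was lost in other fits without that library. HSPH1, which has neither property, was also lower in DESeq2 (adjusted p = 0.0430) and in edgeR with the GC trend removed (adjusted p = 0.0498). In the first of these fits, edgeR without knockout replicate 1, the median log2 fold change of the members was -0.14, and 9 of 10 were below 0. The call rests on which library is left out: without knockout replicate 2 or 3, HSP90AA1 and HSPD1 had log2 fold changes between 0.02 and 0.03, and none of the 5 other fits that left out a library called any member. Without control replicate 3 the members' median was -0.10, with HSPA1A at -0.25 and HSPB1 at 0.07.

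**Figure D2:**
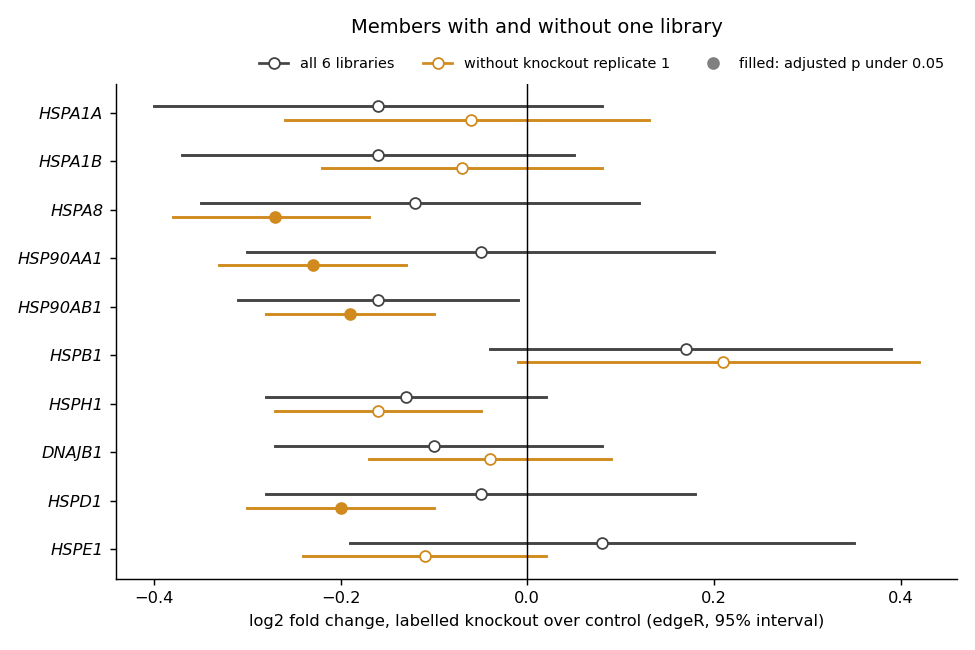
Log2 fold change of each member, labelled knockout over control, with its 95% interval from edgeR, in all 6 libraries (grey) and without knockout replicate 1 (orange); filled points have an adjusted p under 0.05. No grey point is filled, and the filled orange points are HSPA8 at -0.27, HSP90AA1 at -0.23, HSPD1 at -0.20 and HSP90AB1 at -0.19.

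Before any correction for GC content, the members varied more among the libraries labelled knockout, by their median, than abundant genes in general. Their median SD of log2 CPM in that group was 0.18, against 0.10 over the genes that averaged 100 CPM or more, while in the controls it was 0.05 against 0.07. With the GC trend of every library taken out, these medians were 0.09 against 0.08 in the libraries labelled knockout and 0.04 against 0.04 in the controls. Knockout replicate 1 exceeded the mean of replicates 2 and 3 by 0.51 (HSPE1), 0.47 (HSP90AA1), 0.43 (HSPA8) and 0.42 (HSPD1) on the log2 scale, and by 0.10 and 0.08 in HSP90AB1 and HSPH1. It lay below that mean in the 4 members with the highest exon GC content, with differences of -0.32 in HSPA1A, -0.29 in HSPA1B, -0.18 in DNAJB1 and -0.11 in HSPB1, whose exon GC ran from 55.7 to 63.6%. With the trend taken out, the differences were -0.15, -0.13, -0.05 and 0.09 for those 4, while HSPE1, HSPA8, HSP90AA1 and HSPD1 had 0.52, 0.47, 0.45 and 0.32. HSP90AB1 then had 0.14, and HSPH1 turned sign to -0.11, as HSPB1 did in the other direction.

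**Figure D3:**
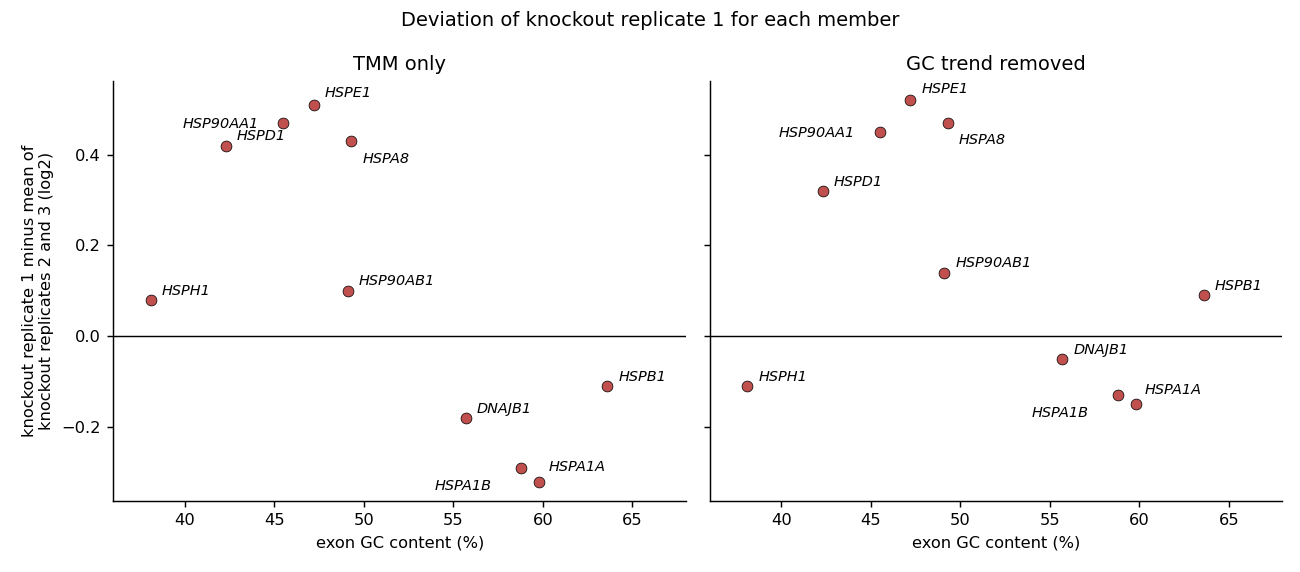
Log2 CPM of knockout replicate 1 minus the mean of knockout replicates 2 and 3 for each member, against the GC content of its exons in percent, before (left) and after (right) each library's GC trend was removed. HSPE1, HSPA8, HSP90AA1 and HSPD1 lie at 0.42 to 0.51 on the left and at 0.32 to 0.52 on the right, while HSPA1A moves from -0.32 to -0.15.

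Over the 6 libraries, and as a description only since they share libraries, 8 of the 10 members fell into sets of like pattern. Pearson's r of log2 CPM was between 0.96 and 0.99 among HSPA8, HSP90AA1 and HSPD1 and between 0.96 and 0.97 among HSPA1A, HSPA1B and DNAJB1, and it was 0.98 between HSP90AB1 and HSPH1. HSPE1 reached 0.91 with HSPD1, and the r of HSPB1 with other members ran from -0.74 (HSPH1) to 0.32 (HSPA1A). High values were common in the table: among 9891 genes, 309, 258 and 318 reached an r of 0.95 with HSPA1A, HSPA1B and DNAJB1, and 86, 152 and 133 with HSPA8, HSP90AA1 and HSPD1. Across the whole table of 9891 genes with at least 10 CPM, the genes most like HSP90AB1 were USP6NL (r = 0.9955), METTL3 (0.9940) and ADORA2B (0.9925), and 86 genes reached 0.95 with it. Those most like HSPH1 were EMP1 (r = 0.9954), IFIT1 (0.9951) and GART (0.9951), and those most like HSPB1 were SLC43A2 (r = 0.9955), ALDH3B1 (0.9954) and ALDH6A1 (0.9918). The libraries differ in GC slope, as given above, and its part in these r values was not tested. For the chromosome neighbours of each member, the median log2 fold change of the 40 nearest tested genes was between -0.07 (HSP90AA1) and 0.11 (HSPB1). The members' own values ran from -0.16 to 0.17.

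Beyond the 10 members, 9 lists of related genes held 87 genes, of which 82 were tested, with 2 called higher and 1 called lower by edgeR, against 1.08% and 1.43% of all genes, and a median log2 fold change of -0.06. None of the 4 genes in the list of heat shock factors, which includes the binding protein HSBP1, passed the edgeR test. HSF1 was at 71.5, 75.1 and 64.5 CPM in the controls and at 57.2, 68.2 and 71.4 CPM in the libraries labelled knockout, and HSF2 was at 26.9, 30.5 and 33.2 CPM against 37.4, 31.1 and 30.3 CPM. Both overlapped between groups, with log2 fold changes of -0.10 (adjusted p = 0.658) and 0.12 (adjusted p = 0.621) in edgeR's quasi-likelihood test and Benjamini-Hochberg adjustment. Of the 4 genes in that list, HSBP1, which binds HSF1, had the smallest p, with a log2 fold change of 0.18 (adjusted p = 0.458, same edgeR test). None of the 6 other heat-induced genes passed, and IER5, with the smallest p, had -0.11 (adjusted p = 0.559, same edgeR test).

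Among small heat shock proteins, CRYAB, the lens and muscle chaperone alpha-B crystallin, was at 2.98, 4.08 and 3.18 CPM in the controls and at 7.57, 9.17 and 6.88 CPM in the libraries labelled knockout. All 3 of the latter were higher. The log2 fold change of CRYAB was 1.20 (SE 0.170, adjusted p = 0.00385, edgeR's quasi-likelihood test and Benjamini-Hochberg adjustment), and all 6 fits that left out a library kept the call, at 0.00504 without knockout replicate 1. It shares 13.6% of its exon bases with HSPB2 on the opposite strand, which itself had at most 5 counts in any library. HSPB8 was the other of 2 tested genes of 6, at a log2 fold change of 0.33 (adjusted p = 0.486, same edgeR test).

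In the HSP70 relatives and nucleotide exchange factors, 1 of 15 genes passed. HSPA2, an HSP70 best known from the testis, was at 12.6, 11.6 and 11.3 CPM in the controls and at 14.5, 19.9 and 19.8 CPM in the libraries labelled knockout. All 3 of these were above the controls, with knockout replicate 1 the closest. Its log2 fold change was 0.61 (SE 0.131, adjusted p = 0.0344, edgeR's quasi-likelihood test and Benjamini-Hochberg adjustment) and 0.74 without knockout replicate 1 (adjusted p = 0.00261, same edgeR test), but each of the other 5 libraries ended the call when left out (adjusted p 0.0670 to 0.142, same edgeR test), as did limma-voom (adjusted p = 0.0560). The median of the list was -0.06.

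The chaperones of the endoplasmic reticulum had the lowest median of the lists: 10 of 10 had a log2 fold change below 0, against 47.8% of all genes, with a median of -0.31 against 0.01, and in 5 all libraries labelled knockout lay below all controls, against 11.5% of all genes. HSPA5 (BiP), their HSP70, was at 1970, 1960 and 1760 CPM in the controls and at 1370, 1390 and 1350 CPM in the libraries labelled knockout. Here knockout replicate 1 lay with the others of its group, well below every control. HSPA5 fell by 0.47 on the log2 scale (SE 0.0732, adjusted p = 0.00676, edgeR's quasi-likelihood test and Benjamini-Hochberg adjustment), and it kept an adjusted p under 0.05 in 5 of the 6 fits that left out a library (0.00136 without knockout replicate 1, 0.0663 without control replicate 2). HYOU1, PDIA4, DNAJC3 and HSP90B1 had log2 fold changes from -0.39 to -0.30 with adjusted p from 0.0542 to 0.0759 in the same edgeR test.

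In the remaining lists no gene passed edgeR's test with all 6 libraries, although other fits called some of those named below. Of 12 HSP90 co-chaperones 9 were below 0 with a median of -0.04, and FKBP4, an immunophilin of steroid receptors, had the smallest p, at -0.19 (adjusted p = 0.196, edgeR's quasi-likelihood test and Benjamini-Hochberg adjustment). Of the 9 tested J-domain proteins DNAJB2 had the smallest p, at 0.34 (adjusted p = 0.0759, same edgeR test), with a list median of -0.04. The TRiC chaperonin and its prefoldin partner, which fold actin and tubulin, had a median of -0.02 over 14 subunits; TCP1, at 595, 608 and 643 CPM against 536, 474 and 480 CPM, was lower without overlap at -0.31 (adjusted p = 0.0587, same edgeR test). Mitochondrial chaperones and proteases had a median of -0.10, with 9 of 10 below 0, and TRAP1, the HSP90 of mitochondria, was at -0.24 (adjusted p = 0.112, same edgeR test). DESeq2 called TCP1 (adjusted p = 0.00466), TRAP1 (0.0218) and DNAJB2 (0.0240). Removal of the GC trend in edgeR gave 0.00721 for TCP1 and 0.00971 for DNAJB2, and leaving out knockout replicate 1 gave 0.00367 and 0.0456. Over 19 alternatives the adjusted p was under 0.05 in 6 for TCP1 (5.22e-08 to 0.238), in 6 for DNAJB2 (0.00499 to 0.284), in 4 for TRAP1 (0.00207 to 0.382) and in 1 for FKBP4 (0.0440 to 0.463).

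**Figure D4:**
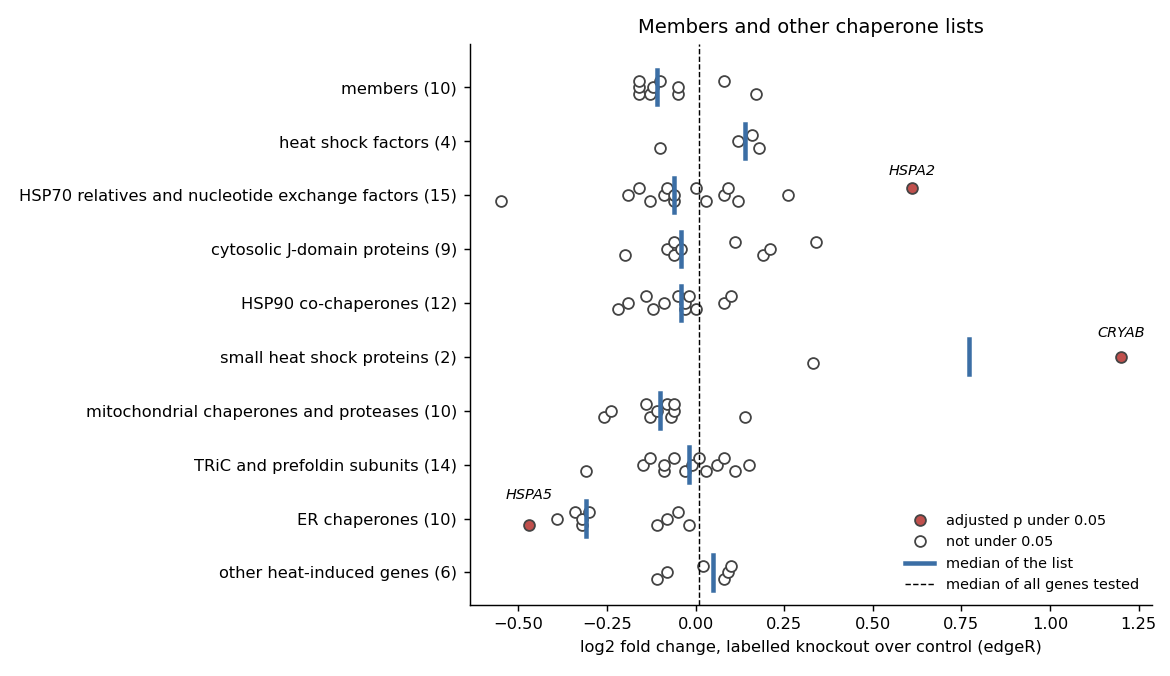
Log2 fold change of each tested gene, labelled knockout over control, for the members and 9 related lists, with the number of tested genes in brackets, the median of each list as a bar and that of all genes as a dashed line. Filled points passed an adjusted p under 0.05 and are CRYAB at 1.20, HSPA2 at 0.61 and HSPA5 at -0.47; the list of endoplasmic reticulum chaperones lies wholly below 0.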

How the data were processed

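Total RNA of 6 cultures was sequenced as pairs of 150 bases. The authors trimmed away adapter and poor-quality reads, aligned the rest to hg38 and deposited raw counts of uniquely mapped reads per gene; fastp 0.20.1 and HISAT2 2.0.4 are named, while the annotation and strandedness are not, so genes with an overlapping gene are uncertain. Symbols were matched to GENCODE 44 for length, GC content and position (20018 of 22354 loci). The counts were fitted with edgeR 4.0.16 in R 4.3.3 (TMM, filterByExpr, robust quasi-likelihood fit, two-sided test, Benjamini-Hochberg adjustment over all 14860 genes kept, threshold 0.05), after tests on simulated data. Alternatives used DESeq2 1.42.0, limma-voom (limma 3.58.1), other scaling and filters, thinning, a replicate block, removal of the GC trend, and each library left out. The genes named outside the members are BMAL1, HSF1, HSF2 and, of each list, up to 8 genes with an adjusted p under 0.05 or else the one with the smallest p; NR1D1, NR1D2, HSPB8, HYOU1, PDIA4, DNAJC3 and HSP90B1 were added after their values were seen. Genes most alike are the 3 with the highest r (log2 CPM, prior count 2), given for the 3 members with the smallest p. The members and lists were chosen with earlier results of these data known. A marker was left out of the lists and sums and is not reported here.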

Additional observations from a re-analysis of the deposited data

How the results depend on the processing

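Between replicates of a group, counts varied 5.41 to 45.0 times as much as counting alone would give. The median log2 fold change of the members lay between -0.14 and -0.08 over 19 alternatives, and that of HSPA1A plus HSPA1B between -0.23 and -0.07 over 15 (adjusted p 0.212 to 0.787, each alternative's own test with Benjamini-Hochberg adjustment). Deviations of same-number replicates from their group means correlated at -0.09, -0.05 and -0.00, against -0.05 to 0.10 for the other pairs. With 3 replicates centred in each group, these values cannot show whether same-number replicates were handled together. With a replicate block, 132 genes were higher and 145 lower, 0 members were called, and the members' median was -0.11. DESeq2 gave 256 genes higher and 378 lower, and removal of the GC trend 505 and 546, with 0 members called in either. With each library left out in turn, 46 to 293 genes were higher, 67 to 340 lower, and 0 to 4 members lower. Chosen after seeing the data, 3 alternatives left out knockout replicate 1. With the GC trend also removed, 814 genes were higher and 973 lower, among them 1 member higher (HSPB1) and 5 lower; DESeq2 gave 295 and 497, with 5 members lower, and limma-voom 338 and 380, with 4 lower. The added member was HSPH1 in both cases of 5. Signs turned only when a library was left out. For HSPE1 the log2 fold change was -0.11 without knockout replicate 1, -0.10 with the GC trend removed as well, and -0.11 with DESeq2 or limma-voom in that setting. HSP90AA1 had 0.03 and HSPD1 0.02 without knockout replicate 2, and both had 0.03 without knockout replicate 3. With each library left out in turn, HSPE1 ranged from -0.11 to 0.19, HSPD1 from -0.20 to 0.03 and HSP90AA1 from -0.23 to 0.03. The cause was not tested.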
